A study of Mus musculus with 6 samples.

Results

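The genes described are 8 members of the Nodal pathway in mouse embryonic stem (ES) cells: the ligand genes Nodal and Gdf3, the co-receptor gene Tdgf1, the receptor gene Acvr2b, the gene of the nuclear partner Foxh1, and the feedback inhibitor genes Lefty1, Lefty2 and Smad7. They were selected by name, and every probe set that the array annotation assigns to exactly 1 of these symbols was kept, which gave 15 of 45037 probe sets. Expression was measured on 6 Affymetrix arrays. 3 arrays held RNA of an ES cell line with a knockout of Dppa4, a gene for a chromatin-associated protein of pluripotent cells. The other 3 held RNA of the hemizygous ES cell line it was compared with, called parental by the submitters, which has a single copy of Dppa4. Each group is 1 cell line, so differences between the groups are differences between those lines. Both lines were grown on mouse embryonic fibroblasts as feeder cells, and no treatment, time point, strain or age is given for either group. The comparison addresses whether the loss of Dppa4 changes the expression state of ES cells.

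Nodal is a secreted factor of the TGF-beta family that signals through activin receptors when an EGF-CFC co-receptor such as the product of Tdgf1 is present. The receptors phosphorylate Smad2 and Smad3, which join Smad4, enter the nucleus and act at target genes together with partners such as Foxh1. Among the targets are Nodal itself, its secreted inhibitors Lefty1 and Lefty2, and the inhibitory Smad gene Smad7, so that the pathway feeds back on its own activity. In mouse ES cells the pathway is active without added ligand, and in the early embryo it patterns the epiblast and induces mesendoderm.

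The deposited values are log2 expression from robust multi-array averaging (RMA), and array medians lay between 4.21 and 4.25. Changes are knockout minus parental on this log2 scale, tested with limma and adjusted over all 45037 probe sets. Of these, 181 (0.402%) passed an adjusted p of 0.05, with 0.0688% higher and 0.333% lower in knockout cells. The targeted gene Dppa4 changed by -1.63 on its brightest probe set, 1429597_at (SE 0.08, adjusted p = 0.000112, limma). Knockout samples still read 8.68, 8.84 and 8.68 on it, 32.2% of the parental signal, and the source of this remaining signal was not tested. All 9 ES cell markers examined lay above the background level of 3.78, which is the 95th percentile of the means of olfactory and vomeronasal receptor probe sets, and so did 21 of 21 measured feeder fibroblast markers. Pou5f1 and Sox2, central pluripotency genes, had changes of -0.06 and -0.08 (adjusted p = 0.852 and 0.797, limma). The arrays therefore hold RNA of both cell types, and fewer cells of a type cannot be told apart from less RNA per cell. The labels do not say that replicates were separate cultures, so every p-value here rests on a spread between arrays that could be technical only.

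All 15 probe sets of the 8 genes lay above background, and 0 of them passed the test. At an unadjusted p under 0.05, limma gave 3 of 15 (20.0%), 2 lower and 1 higher. That level was reached by 9.49% of all probe sets (5.19% lower and 4.30% higher) and by 12.6% of those above background. The 3 member probe sets belong to only 2 genes, Gdf3 and Foxh1. Taking the brightest probe set per gene, the count was 1 of 8 genes against 11.0% of 18193 genes and 13.1% of 13378 genes above background. The changes ran from -0.37 to 0.40, with a median of 0.05 against 0.00 over all probe sets. The median absolute change was 0.17, against 0.08 over all probe sets and 0.09 over those above background. It counts genes with several probe sets more than once. Over the 49 further pathway genes described below it was 0.09. Knockout and parental values did not overlap on 2 of the 15 probe sets, 1 in each direction. Of all probe sets, 14.2% did not overlap, 7.52% with the knockout lower and 6.71% with it higher. Of the 26803 above background, 2426 did not overlap with the knockout lower and 2272 with it higher. An exact permutation test of 3 arrays against 3 cannot give a two-sided p below 0.100.

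**Figure D1:**
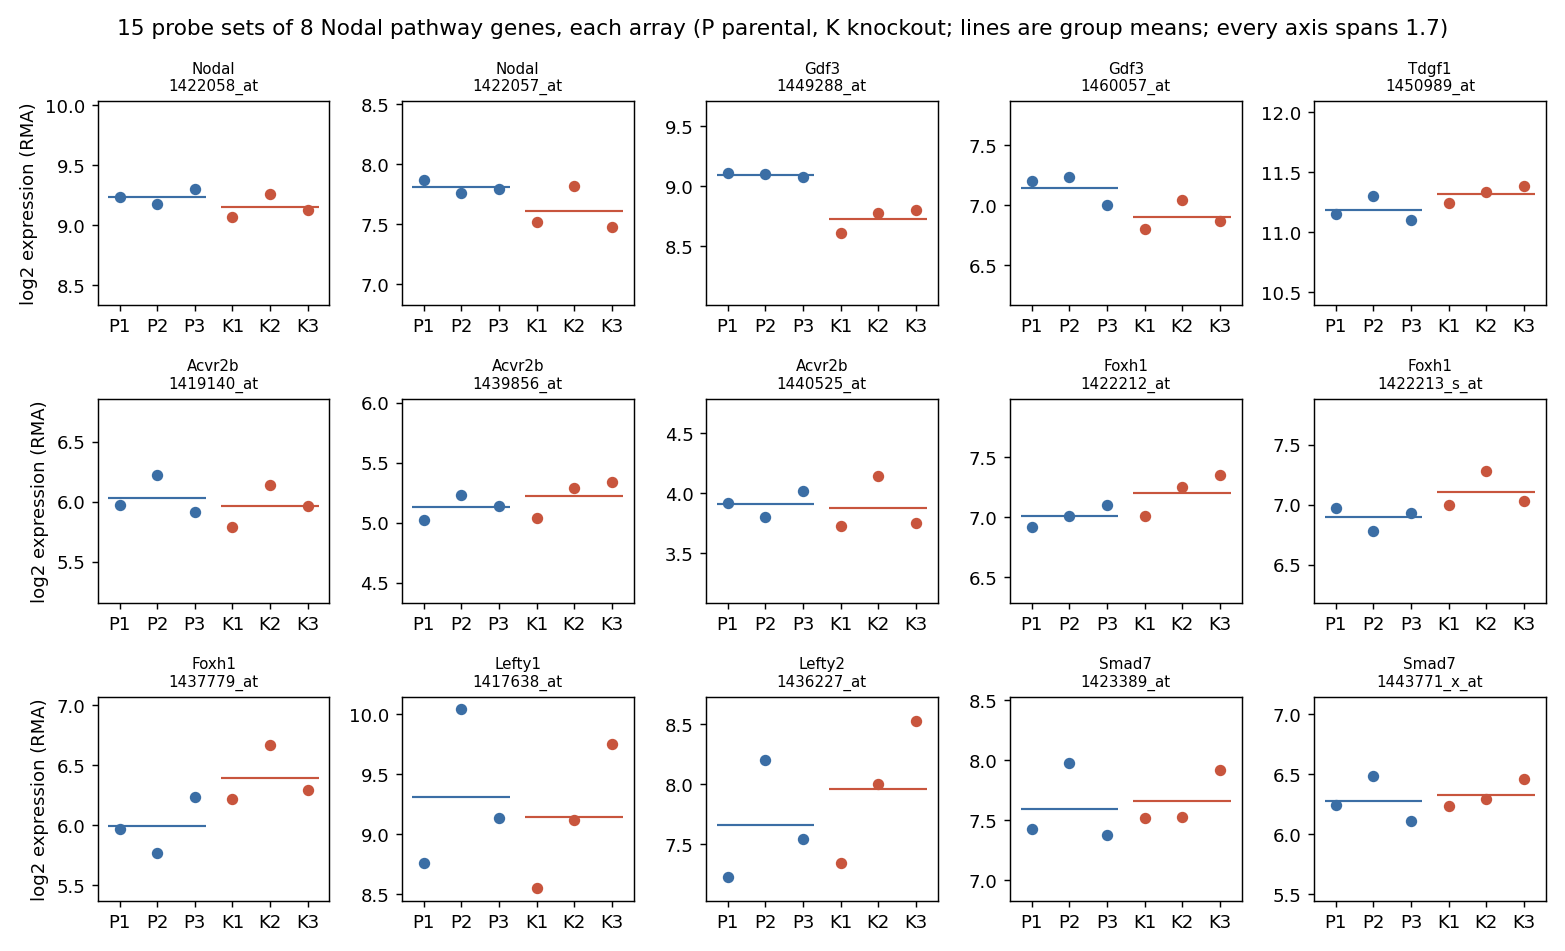
The log2 RMA value of each array (P parental, K knockout, with the replicate number) for the 15 probe sets; points are arrays, horizontal lines are group means, and every vertical axis spans the same range. On Gdf3 1449288_at the knockout arrays (8.61 to 8.80) lie below the parental ones (9.08 to 9.11), while Lefty1 and Lefty2 range over 1.49 and 1.30 log2 units across the arrays of both groups.

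The ligand genes had a lower mean in knockout samples on all of their probe sets, but the groups were separate only on Gdf3 1449288_at. Of all 45037 probe sets, 22631 had a change below 0. Probe sets of 1 gene on the same arrays are not independent evidence. The product of Gdf3 is a Nodal-related ligand that also needs the co-receptor. On probe set 1449288_at, Gdf3 read 9.11, 9.10 and 9.08 in parental and 8.61, 8.78 and 8.80 in knockout samples. All 3 knockout arrays lay below all 3 parental arrays. The change was -0.37 (SE 0.08, 95% interval -0.55 to -0.19, adjusted p = 0.148, limma). Knockout samples thus held 77.6% of the signal of parental samples, with an interval of 68.4% to 88.0%. The difference was larger than the spread within the groups, which was 0.02 (SD, n = 3) in parental and 0.10 in knockout samples, but it did not pass the adjustment over all probe sets. Its adjusted p ranged from 0.0558, with an intensity trend and robust prior, to 0.430, with the replicate block.

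The other Gdf3 probe set, 1460057_at, read 7.20, 7.23 and 7.00 in parental and 6.80, 7.04 and 6.87 in knockout samples. Here knockout replicate 2 lay above parental replicate 3, so the groups overlapped. The change was -0.24 (SE 0.10, adjusted p = 0.490, limma), in the same direction as on the first probe set. Beside these values, the mean of the 9 ES cell markers was 10.46, 10.46 and 10.40 in parental and 10.29, 10.33 and 10.32 in knockout samples. It was lower in all 3 knockout arrays, although none of the 9 markers passed the test. Nanog, a pluripotency transcription factor gene, had a change of -0.49 (SE 0.10, adjusted p = 0.122, limma), and Tfcp2l1, another such gene, of -0.32 (adjusted p = 0.391). The changes of the other markers lay between -0.18 for Esrrb and 0.09 for Klf4, and that of Utf1 was also above 0, at 0.07. The part of the ES cell marker level in the values of Gdf3 was not tested.

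Nodal had smaller differences. Its brighter probe set, 1422058_at, read 9.24, 9.18 and 9.30 in parental and 9.07, 9.26 and 9.13 in knockout samples, a change of -0.09 (SE 0.08, adjusted p = 0.806, limma). Knockout replicate 2 lay inside the parental range and the other two knockout arrays below it. The second probe set, 1422057_at, read 7.87, 7.76 and 7.79 in parental and 7.52, 7.82 and 7.48 in knockout samples, with a change of -0.20 (SE 0.10, adjusted p = 0.601, limma). On this probe set too, knockout replicate 2 alone reached the parental range. The intervals covered 82.8% to 107% and 74.0% to 102% of the parental signal. With the mean of the feeder markers as a covariate, the change of 1422058_at was 0.01 and that of 1422057_at was -0.08, and neither passed.

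The co-receptor gene Tdgf1, also known as Cripto and used as a marker of undifferentiated ES cells, was represented by 1 probe set, 1450989_at. It read 11.15, 11.30 and 11.10 in parental and 11.24, 11.33 and 11.38 in knockout samples. The highest 2 values were knockout arrays, but knockout replicate 1 lay below parental replicate 2. The change was 0.13 (SE 0.08, adjusted p = 0.693, limma), with an interval of 96.0% to 125% of the parental signal.

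Acvr2b encodes a type II activin receptor that binds Nodal and activin. Its 3 probe sets disagreed on the direction, with changes of -0.07 on 1419140_at, 0.09 on 1439856_at and -0.04 on 1440525_at. The brightest, 1419140_at, read 5.97, 6.22 and 5.91 in parental and 5.79, 6.14 and 5.96 in knockout samples. Values of the groups were interleaved, and the adjusted p was 0.904 (limma). The dimmest, 1440525_at, had group means of 3.91 and 3.87, just above the background level of 3.78, so its values carry little information on the gene. The interval for 1419140_at covered 79.1% to 115% of the parental signal.

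Foxh1 encodes the forkhead factor that recruits activated Smads to many Nodal targets, and its 3 probe sets all read higher on average in knockout samples. On 1422212_at it read 6.92, 7.01 and 7.10 in parental and 7.01, 7.25 and 7.35 in knockout samples (change 0.19, SE 0.10, adjusted p = 0.622, limma). On 1422213_s_at it read 6.97, 6.78 and 6.93 against 7.00, 7.28 and 7.03 (change 0.21, SE 0.10, adjusted p = 0.563, limma). The groups did not overlap on this probe set, by a gap between parental replicate 1 and knockout replicate 1 that is smaller than the spread within either group.

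The dimmest probe set of Foxh1, 1437779_at, read 5.97, 5.77 and 6.23 in parental and 6.22, 6.67 and 6.29 in knockout samples. Knockout replicate 2 was the highest array, and parental replicate 3 lay just above knockout replicate 1. The change was 0.40 (SE 0.15, adjusted p = 0.445, limma), the highest of the 15 probe sets, and it did not pass the threshold. With the feeder covariate it was 0.67 with an adjusted p of 0.0635 (limma), the lowest among the alternatives examined. Under the other alternatives its adjusted p lay between 0.358, with probe sets above background only, and 0.720, without parental replicate 1. The 3 probe sets read transcripts of 1 gene on the same arrays and are not independent evidence of a change.

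**Figure D2:**
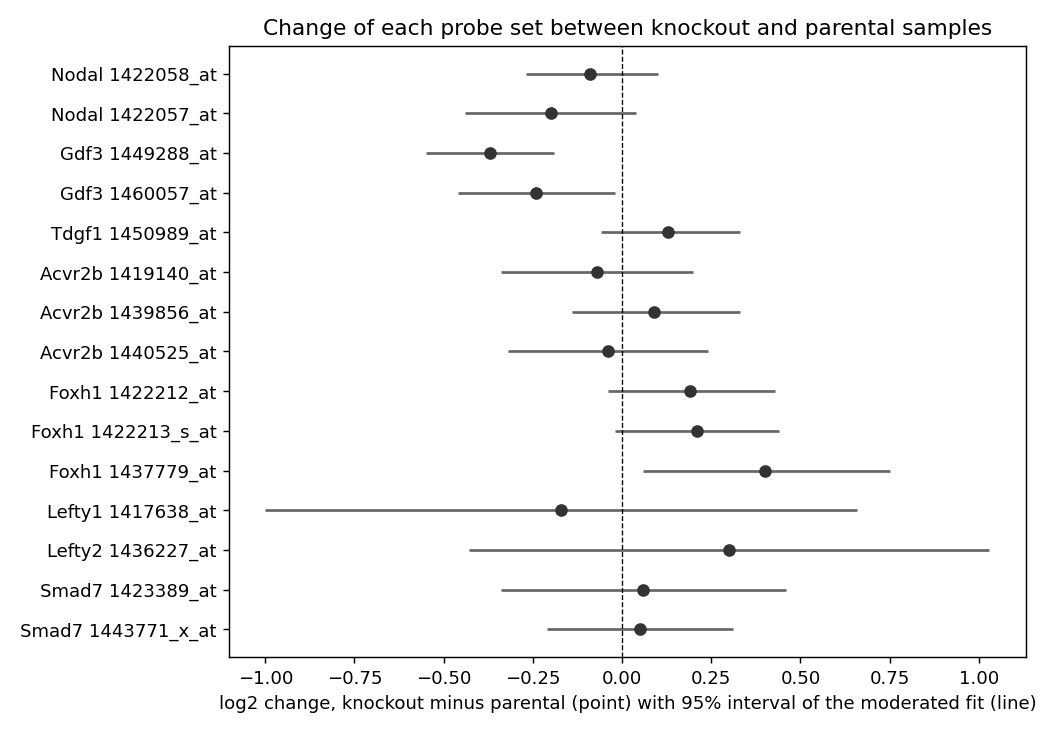
The log2 change between knockout and parental samples (point) of each probe set, with the 95% interval of the moderated limma fit, not adjusted for the number of probe sets (line). The intervals of both Gdf3 probe sets lie below 0 and that of Foxh1 1437779_at lies above 0, and the intervals of Lefty1 and Lefty2 are the widest.

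Among the feedback inhibitor genes, Lefty1 and Lefty2 varied more between arrays of the same line than any other member. Lefty1 (1417638_at) read 8.76, 10.04 and 9.13 in parental and 8.55, 9.12 and 9.75 in knockout samples. Parental replicate 2 and knockout replicate 3 were high and replicate 1 of each group was low, so the groups overlapped almost fully. The highest and the lowest array differed 2.81-fold. The change was -0.17 (SE 0.36, adjusted p = 0.928, limma), and its interval reached from 50.0% to 158% of the parental signal, so these arrays do not exclude a sizeable difference in either direction. Without parental replicate 2 the change was 0.20 and without knockout replicate 1 it was 0.12, against -0.17 with all arrays.

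Lefty2 (1436227_at) read 7.23, 8.20 and 7.54 in parental and 7.34, 8.0 and 8.53 in knockout samples. The same arrays were high and low as for Lefty1, with a 2.46-fold range. The change was 0.30 (SE 0.32, adjusted p = 0.834, limma), with an interval of 74.4% to 204% of the parental signal. It was 0.01 without knockout replicate 3, 0.09 without parental replicate 1, 0.57 without parental replicate 2 and 0.61 without knockout replicate 1.

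The standard deviation within groups, pooled over both, was 0.63 for Lefty1 and 0.55 for Lefty2. It was larger than that of 99.7% and 99.5% of the probe sets above background, whose median was 0.12. Nodal 1422058_at and Gdf3 1449288_at stood at 0.08 and 0.07, larger than 25.1% and 21.4% of those probe sets. Nodal, whose product drives the expression of both Lefty genes, was not high in the same arrays. Over the 6 arrays its Pearson r was 0.00 with Lefty1 (exact permutation p = 0.997) and -0.16 with Lefty2 (0.754), with a Spearman rho of 0.14 and -0.14 (both 0.803).

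Smad7, an inhibitory Smad gene induced by Nodal and by other TGF-beta family ligands, varied less than the Lefty genes, and its probe sets differed in spread. Its brighter probe set, 1423389_at, read 7.43, 7.98 and 7.38 in parental and 7.52, 7.53 and 7.92 in knockout samples. Parental replicate 2 and knockout replicate 3 were again the highest of their groups, and the pooled standard deviation of 0.29 was larger than that of 95.1% of probe sets above background. The change was 0.06 (SE 0.17, adjusted p = 0.952, limma), with an interval of 79.0% to 138% of the parental signal. The second probe set, 1443771_x_at, read 6.24, 6.48 and 6.11 against 6.23, 6.29 and 6.46 (change 0.05, adjusted p = 0.933, limma). The same arrays were the highest of their groups, but its standard deviation was 0.16, larger than that of 69.7% of probe sets above background. That is below the 0.24 of Foxh1 1437779_at and close to the values of Acvr2b 1419140_at and 1440525_at, 0.17 and 0.18.

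Parental replicate 2 and knockout replicate 3 were the highest of their groups on 6 of the 15 probe sets, those of Tdgf1, Lefty1, Lefty2, Smad7 (both) and 1 of Acvr2b. This was so for 13.2% of all probe sets. By gene, it held for 4 of 8 against 16.3% of 18193 genes. Over all probe sets, the deviations of these arrays from their group means had a correlation of 0.371. For knockout replicate 2 with parental replicate 3 it was 0.379, so another pair of arrays shared deviations as much. The pattern was noticed after the values were seen.

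Of 28 pairs of the 8 genes on their brightest probe sets, the 3 highest Pearson correlations over the 6 arrays joined the feedback inhibitors, with a pair that includes Tdgf1 close behind. Lefty1 and Lefty2 had a Pearson r of 0.87 (exact permutation p = 0.0250, adjusted p = 0.379) and a Spearman rho of 0.83 (exact permutation p = 0.0583, adjusted p = 0.622). Without parental replicate 2 and knockout replicate 3, the farthest from the median of Lefty1, r was 0.74. Lefty1 and Smad7 had an r of 0.87 (exact permutation p = 0.05, adjusted p = 0.379), a rho of 0.60 (exact permutation p = 0.242, adjusted p = 0.696) and an r of -0.32 without those arrays, so that this relation rests on them. Lefty2 and Smad7 had an r of 0.84 (exact permutation p = 0.0431, adjusted p = 0.379), a rho of 0.77 (exact permutation p = 0.103, adjusted p = 0.622) and an r of 0.75 without knockout replicate 3 and parental replicate 1. Tdgf1 and Lefty2 had an r of 0.83 (exact permutation p = 0.0542, adjusted p = 0.379), a rho of 0.77 (exact permutation p = 0.103, adjusted p = 0.622) and an r of 0.92 without parental replicates 3 and 1. By rank, Tdgf1 and Smad7 stood level with Lefty1 and Lefty2, with a rho of 0.83 (exact permutation p = 0.0583, adjusted p = 0.622), an r of 0.76 (exact permutation p = 0.0958, adjusted p = 0.447) and an r of 0.49 without parental replicates 3 and 1. In each pair the 2 arrays left out were those farthest from the median of the first gene named, so they differ between pairs. Parental replicate 2 stayed in for Lefty2 with Smad7, and both parental replicate 2 and knockout replicate 3 for the pairs with Tdgf1. These values of r are therefore not comparable between pairs, and how far those relations rest on the same arrays was not tested. All tests were two-sided, and 0 of 28 pairs passed after Benjamini-Hochberg adjustment over the pairs, while 2 had an unadjusted Pearson p under 0.05.

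Lefty1 and Lefty2 are close paralogues that both lie on chromosome 1 in the RefSeq table of the assembly GRCm38.p6. How far each probe set also reads the transcript of the other gene is not given in the sources used here. After the group means were removed, the values of both genes correlated at 0.99 over the 6 arrays, a description with fewer free values than arrays. This was the highest of the 28 pairs but not particular to the Lefty genes. Tdgf1 with Smad7 stood at 0.92, Lefty1 with Smad7 at 0.91 and Tdgf1 with Lefty1 at 0.90. The lowest pair, Nodal with Smad7, stood at -0.48. The difference between Lefty1 and Lefty2 within an array is not moved by what raises or lowers both alike. Lefty1 minus Lefty2 was 1.53, 1.84 and 1.59 in parental and 1.21, 1.12 and 1.22 in knockout samples. All 3 knockout arrays lay below all 3 parental arrays, with means of 1.18 ± 0.06 and 1.65 ± 0.16 (SD, n = 3) and a difference of -0.47 (exact permutation p = 0.100, two-sided, the smallest that 3 against 3 can give). The level of the difference depends on the probes and says nothing about which transcript is more abundant.

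The within-array difference was examined for all 28 pairs after the values of Lefty1 and Lefty2 had been seen. The groups did not overlap for 6 pairs, of which 4 include Gdf3: its differences from Nodal, Tdgf1, Acvr2b and Foxh1. The remaining pairs were Nodal with Foxh1 and Lefty1 with Lefty2. Set against each of 13377 other genes above background, the difference of Gdf3 did not overlap between the groups for 74.2%, and that of Nodal for 18.5%. The count for Gdf3, 4 of 7 members, is not above its share over other genes, and Gdf3 separates the groups by itself. The difference of Lefty1 did not overlap between the groups for 0.247%, and that of Lefty2 for 0.740%. For each of them, the other Lefty gene was the single one among the 7 remaining members. A difference from a Lefty gene carries that gene's pooled standard deviation, 0.63 for Lefty1 and 0.55 for Lefty2, unless the other gene shares its deviations. The part of this spread in the low shares was not tested. The shares are therefore not a measure of how rare the difference between the groups is. With an exact p of 0.100 for each of the 6 pairs that did not overlap, none of them can pass a threshold of 0.05.

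**Figure D3:**
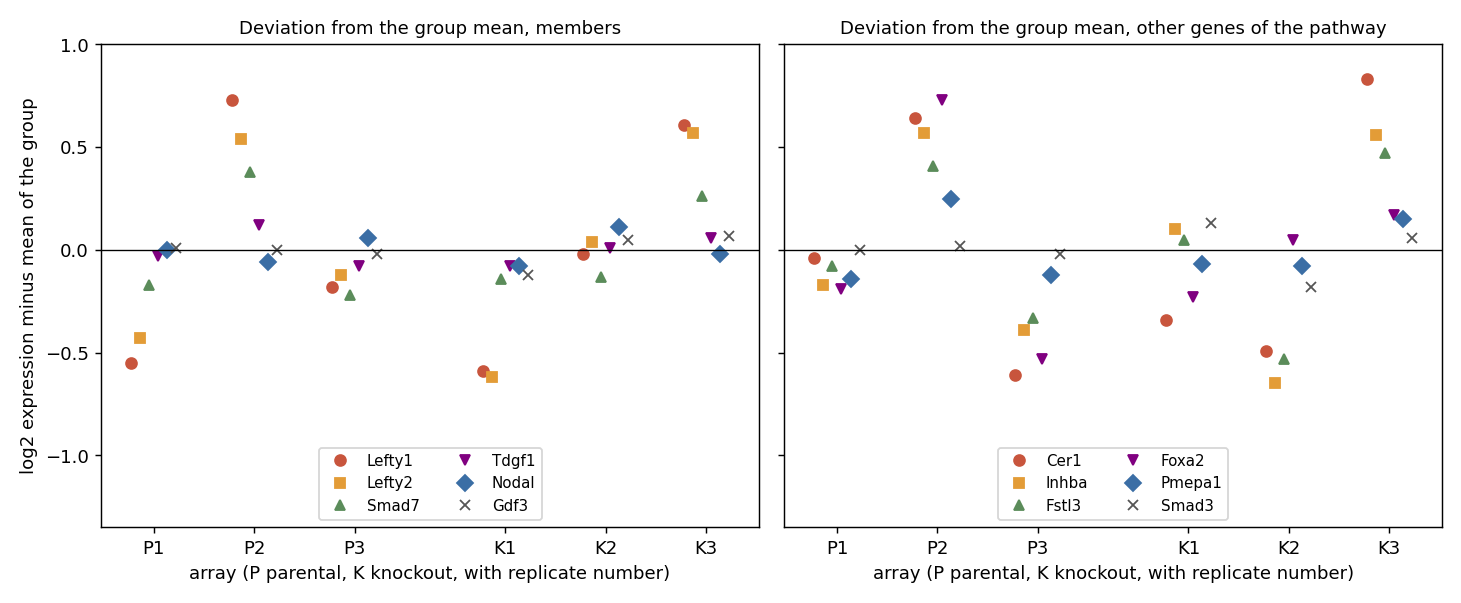
Each point is the log2 RMA value of an array minus the mean of its group (P parental, K knockout), for 6 members on their brightest probe sets at left and 6 other genes of the pathway at right, the latter picked after their values were seen. Lefty1, Lefty2, Smad7 and Tdgf1 are highest of their groups in P2 and K3, as are Cer1, Inhba, Fstl3, Foxa2 and Pmepa1, but not Smad3. This held for 19 of the 49 further pathway genes, against 16.3% of all genes. The lowest knockout array was K1 for Lefty1 and Lefty2 but K2 for Cer1, Inhba and Fstl3. Tdgf1, Nodal and Gdf3 stay within 0.12 of their group means.

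For a wider view of the pathway, 52 further genes of Nodal and activin signalling were listed by role, and 49 of them had a probe set with that symbol alone. 0 of the 49 passed the test of limma, where 0.605% of genes did. At an unadjusted p under 0.05, 2 were lower and 0 higher, against 11.0% of genes in either direction. The median change was -0.02. Groups did not overlap for 4 genes, 1 higher and 3 lower, where 16.3% of genes did not overlap.

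**Figure D4:**
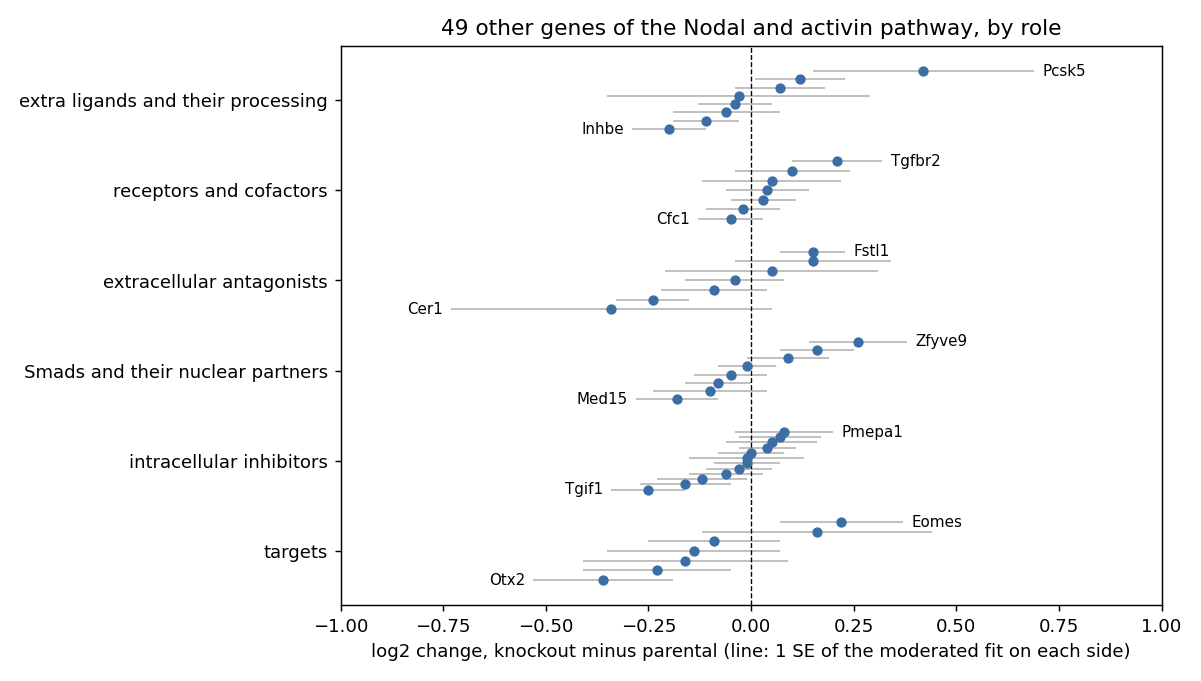
The log2 change between knockout and parental samples (point) with 1 SE of the moderated fit on each side (line) for 49 further pathway genes, on the brightest probe set of each and arranged by role; the gene with the lowest and the highest change of each role is named. Changes range from -0.36 for Otx2 to 0.42 for Pcsk5, and 0 passed the adjusted threshold.

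Among ligand genes and the genes that process ligands, the activin subunit genes Inhba and Inhbb had changes of -0.03 (adjusted p = 0.988, limma) and -0.06 (0.927). Inhba read 8.78, 9.52 and 8.56 in parental and 9.02, 8.27 and 9.48 in knockout samples, again with parental replicate 2 and knockout replicate 3 at the top. Inhbe, below background, had a change of -0.20 (adjusted p = 0.564), and the proprotein convertase gene Pcsk5 of 0.42 (adjusted p = 0.698). The receptor genes Tgfbr3 and Tgfbr2 had changes of 0.10 and 0.21 (adjusted p = 0.870 and 0.608). None of the 7 receptors and cofactors reached an unadjusted p under 0.05.

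Among extracellular antagonists, the follistatin-like gene Fstl1 read 11.69, 11.71 and 11.69 in parental and 11.97, 11.74 and 11.83 in knockout samples (change 0.15, adjusted p = 0.630, limma). Follistatin, the activin-binding product of Fst, had a transcript change of 0.15 (adjusted p = 0.867). Tmeff1, which encodes a membrane protein that antagonises Nodal signalling through the co-receptor in Xenopus, read 8.26, 8.35 and 8.37 against 7.99, 8.23 and 8.05. All 3 knockout arrays were lower, with a change of -0.24 (adjusted p = 0.440, limma).

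The intracellular mediators showed small differences. Smad4, the shared partner of the receptor-activated Smads, had a change of 0.16 (adjusted p = 0.614, limma), the Smad anchor gene Zfyve9 of 0.26 (0.534) and Gtf2i of -0.01 (0.976). Tgif1, a corepressor of Smad2 and Smad3, read 10.19, 10.44 and 10.21 in parental and 10.03, 9.98 and 10.08 in knockout samples. It was lower in all 3 knockout arrays, by -0.25 (adjusted p = 0.423, limma), the lowest adjusted p of the 49 genes. Skil, a Smad corepressor gene that is itself induced by the pathway, had a change of -0.16 (adjusted p = 0.733).

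Otx2 and Eomes represented the 7 measured target genes. Otx2, a homeobox gene of the epiblast and anterior neural plate, read 8.88, 9.18 and 9.14 in parental and 8.31, 9.00 and 8.80 in knockout samples, a change of -0.36 (adjusted p = 0.557, limma). Eomes, a T-box gene of mesendoderm, read 5.43, 5.66 and 5.22 against 5.39, 5.68 and 5.91, a change of 0.22 (adjusted p = 0.721). In 6 of the 7 target genes, all but Otx2, parental replicate 2 and knockout replicate 3 were the highest of their groups. Over the 49 genes this was so for 19, against 16.3% of all genes.

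Of the other cell types examined, all 3 measured mesendoderm markers were highest in these arrays, as were 2 of 5 endoderm and 4 of 21 feeder markers, against 16.3% of all genes. For Mixl1 this rests on 4.26 in knockout replicate 3 against 4.25 in knockout replicate 2. The mean of the mesendoderm markers Eomes, Mixl1 and Gsc was 4.57, 4.98 and 4.40 in parental and 4.50, 4.58 and 4.78 in knockout samples, highest in parental replicate 2 and knockout replicate 3. The 5 endoderm markers had means of 4.19, 4.55 and 4.06 against 4.29, 4.28 and 4.34, nearly level in the knockout group. The secreted Nodal antagonist gene Cer1, known from anterior endoderm, read 4.55, 5.23 and 3.98 against 3.91, 3.76 and 5.08. Eomes, Mixl1, Gsc, Sox17 and Foxa2 are on the target list as well. All of these are low levels against the background of 3.78.

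The mean of the 21 feeder markers was 10.53, 10.65 and 10.48 in parental and 10.77, 10.55 and 10.69 in knockout samples. Parental replicate 2 was the highest of its group, while in the knockout group replicate 1 was. Of the 21, the fibroblast genes Thy1, Twist2, Tagln and Thbs1 were highest of their groups in parental replicate 2 and knockout replicate 3. That is 4 of 21, near the 16.3% of all genes. Col3a1, Col5a1, Col6a1 and Col6a2 were instead the lowest of their groups in those arrays. With the feeder mean as a covariate, Lefty1 had a change of -0.31 and Lefty2 of 0.26, against -0.17 and 0.30 without it. The part of endoderm, mesendoderm or feeder RNA in the spread of Lefty1, Lefty2 and Smad7 between arrays was not tested.

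Genes whose values over the 6 arrays were most like those of Nodal, Lefty1 and Lefty2 were sought among 13377 others above background. With so few arrays, many genes follow any given order: 2.15% had a Pearson r above 0.9 with Nodal, 0.837% with Lefty1 and 0.740% with Lefty2. The closest to Nodal were 3110001I22Rik (r = 0.996), Ireb2 (0.995) and Ddx20 (0.995). The closest to Lefty1 were Rgs9 (0.990), Ramp1 (0.985) and Aspscr1 (0.985). The closest to Lefty2 were Auh (0.987), Fbxo17 (0.986) and Sdk1 (0.986). Lefty2 stood at rank 176 in the order of likeness to Lefty1 and Smad7 at rank 187. These correlations describe 6 arrays that share their normalization, and they were the highest of many.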

How the data were processed

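Biotin-labelled total RNA was measured on Affymetrix arrays, per the labels' protocols. The deposited table holds log2 values of 45101 probe sets that the authors normalized by RMA, per the submitters' processing notes; which software and settings they used is not stated in these sources. The log2 scale was read from the values (2.12 to 13.98). After 64 control probe sets were left out, 45037 were tested with limma 3.58.1 in R 4.3.3 (lmFit, eBayes, two-sided, no covariate, Benjamini-Hochberg adjustment, threshold 0.05); intervals are 95%. Exactly 1 gene was annotated for 34945 probe sets, several for 932 and none for 9160. Gene IDs of all 8 members matched RefSeq (GRCm38.p6). The background level came from 80 receptor probe sets. Because RMA equalises the arrays, a change common to most transcripts could not be seen. The number of arrays limits the precision. No arrays held identical values.

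All member probe sets were named, as were, per role of the wider list, the genes past the threshold, the 2 brightest and the 2 with the lowest p. The 3 genes most like Nodal, Lefty1 and Lefty2 were named by Pearson r. Other names were chosen after values were seen. Members and lists were chosen with earlier results of these data known. The fit was also run on simulated data with independent noise for each probe set. The arrays here share deviations across probe sets, so that run does not bear on false calls in them. Replicate numbers did not pair the arrays (correlations of same-number deviations 0.112, -0.364 and -0.287). The 13 alternatives were those listed in the closing section.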

Additional observations from a re-analysis of the deposited data

How the results depend on the processing

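Under all 13 alternatives (a second quantile normalization, subtraction of array medians, the replicate block, an intensity trend with robust prior, probe sets above background only, no x_at or s_at probe sets, the feeder marker mean as a covariate, and leaving out each of the 6 arrays), 0 members and 0 of the wider list passed (limma). The 181 calls over all probe sets became 88 with the replicate block, 312 with the intensity trend and robust prior, between 70 and 112 without 1 array, and 86 with the feeder covariate. The block changed no member's call, and the numbers do not pair the arrays. The feeder covariate turned the signs of Nodal 1422058_at (0.01), Acvr2b 1440525_at (0.16), Smad7 1423389_at (-0.12) and Smad7 1443771_x_at (-0.03), none of them called; the cause was not tested. Leaving out 1 array turned the signs of Lefty1 (-0.48 to 0.20), Acvr2b 1419140_at (-0.16 to 0.02), Acvr2b 1440525_at (-0.17 to 0.03), Smad7 1423389_at (-0.07 to 0.25) and Smad7 1443771_x_at (-0.03 to 0.15). Gdf3 1449288_at ranged from -0.40 to -0.31 and Foxh1 1437779_at from 0.26 to 0.52. Array number limits what could be detected for Lefty1 and Lefty2, whose spread was widest.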
